A study of Mus musculus with 8 samples.

Results

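The data described here are the open chromatin peaks at 10 mouse genes of the oligodendrocyte lineage, namely the transcription regulators Sox10, Olig1, Olig2, Nkx2-2, Nkx6-2 and Tcf7l2, the precursor receptor Pdgfra, and Gpr17, Bcas1 and Enpp6, which mark cells on the way from precursor to oligodendrocyte. The genes were chosen by name from a total of 21911 annotated protein-coding genes, and a locus ran from 3 kb before the gene to 3 kb after it. ATAC-seq, in which the Tn5 transposase cuts and tags the DNA it can reach, was performed on the cortex of 4 BCAS and 4 sham mice, 1 library per mouse. All mice were male C57BL/6 animals of 14 weeks, sampled 3 weeks after the operation. BCAS mice had microcoils around both common carotid arteries (bilateral carotid artery stenosis, with the narrower coil on the right), which lowers blood flow to the forebrain for weeks, and sham mice had the arteries exposed without coils. The sample labels give the right cortex, but a quality table of the study names whole-brain cortex, with the olfactory bulb and cerebellum taken off, so the side differs between the sources. The gene Bcas1 (breast carcinoma amplified sequence 1) has nothing to do with the BCAS operation but its name.

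Oligodendrocytes wrap axons in myelin and arise in the adult cortex from precursor cells that divide under the control of platelet-derived growth factor and its receptor. Olig2 and Sox10 hold the lineage from precursor to mature cell, Nkx2-2 and Tcf7l2 act around the step at which precursors leave division and begin to differentiate, and Gpr17, Bcas1 and Enpp6 are switched on in committed or newly formed cells. Damage to white matter is a known outcome of chronic hypoperfusion in rodents. In bulk cortex, a change in the number of cells of a type and a change in the openness of the locus in each cell cannot be told apart.

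Merging the 8 peak lists gave 197916 regions, of which 78 lay at the 10 loci. The distance given for a region is that of its summit from the nearest start among the basic GENCODE transcripts of the gene, and several genes have more than 1 such start. The 201 bases around the median summit of the 7 regions to which the results below refer most are shown here, read from GRCm38 on the plus strand. Capitals mark the letters of a searched motif. The first Tcf7l2 region and the Nkx2-2 region are shown because BCAS libraries and no sham library had a peak there, the next Tcf7l2 region and the Bcas1 region because 1 sham library shared them, the Enpp6 exon region because it leans to sham, and the last 2, at Enpp6 and at the Olig2 start, because every library had them.
Tcf7l2 intron, 4 BCAS and 0 sham libraries, chr19:55865999-55866199: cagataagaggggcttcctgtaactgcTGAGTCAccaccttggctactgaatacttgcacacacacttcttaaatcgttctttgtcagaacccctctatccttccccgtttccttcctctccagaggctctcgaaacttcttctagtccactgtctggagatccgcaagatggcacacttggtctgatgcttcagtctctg
Nkx2-2 coding exon, 3 BCAS and 0 sham libraries, chr2:147185729-147185929: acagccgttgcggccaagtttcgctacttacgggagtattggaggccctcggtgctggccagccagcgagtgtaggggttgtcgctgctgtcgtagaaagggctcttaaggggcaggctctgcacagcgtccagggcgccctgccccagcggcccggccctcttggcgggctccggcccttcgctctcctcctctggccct
Tcf7l2 intron, 4 BCAS and 1 sham library, chr19:55827960-55828160: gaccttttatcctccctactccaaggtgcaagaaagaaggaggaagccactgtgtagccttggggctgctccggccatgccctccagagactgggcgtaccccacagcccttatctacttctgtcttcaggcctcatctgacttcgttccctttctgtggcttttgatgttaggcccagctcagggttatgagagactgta
Bcas1 flank past the end, 4 BCAS and 1 sham library, chr2:170345598-170345798: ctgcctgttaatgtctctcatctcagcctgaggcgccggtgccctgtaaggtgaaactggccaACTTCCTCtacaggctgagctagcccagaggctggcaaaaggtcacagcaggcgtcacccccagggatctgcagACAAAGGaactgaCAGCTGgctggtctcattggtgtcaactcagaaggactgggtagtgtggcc
Enpp6 coding exon, 1 BCAS and 4 sham libraries, chr8:47082361-47082561: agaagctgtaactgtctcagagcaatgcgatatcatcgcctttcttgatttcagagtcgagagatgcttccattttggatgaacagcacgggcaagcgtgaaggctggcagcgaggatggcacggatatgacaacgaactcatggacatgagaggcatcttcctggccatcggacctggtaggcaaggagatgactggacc
Enpp6 intron, all libraries, chr8:47032193-47032393: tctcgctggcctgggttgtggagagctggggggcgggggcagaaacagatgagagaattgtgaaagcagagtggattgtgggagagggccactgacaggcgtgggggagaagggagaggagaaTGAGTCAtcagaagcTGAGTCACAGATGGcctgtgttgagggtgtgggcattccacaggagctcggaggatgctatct
Olig2 start, all libraries, chr16:91225260-91225460: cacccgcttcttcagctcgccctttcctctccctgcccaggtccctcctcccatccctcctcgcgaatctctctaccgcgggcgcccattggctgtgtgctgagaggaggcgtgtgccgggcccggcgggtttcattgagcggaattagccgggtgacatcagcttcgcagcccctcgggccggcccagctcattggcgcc

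The motifs searched on both strands in these windows were SOX (ACAANGG), OLIG (CCATNTGT), an E-box (CAGCTG), TCF (TCAAAGG), NKX2 (CAAGTGG), PU.1 (GAGGAAGT) and AP-1 (TGANTCA). The Tcf7l2 region that was limited to BCAS held AP-1 letters, the target sequence of Fos and Jun proteins. The Bcas1 region past the end of the gene held SOX letters, an E-box and PU.1 letters, the last of which are bound by the myeloid factor PU.1. The Enpp6 region with the strongest peaks held 2 AP-1 matches and 1 OLIG match, which shares 1 base with the nearer of them. The other 4 windows held none of the searched letters. Among all 78 regions SOX letters were found in 13 (16.7%, against 9.8% of all 197916 regions), an E-box in 18 (23.1%, against 17.9%), OLIG letters in 7 (9.0%, against 6.1%) and AP-1 letters in 9 (11.5%, against 15.1%). PU.1 letters were found in 3 (3.8%, against 2.9% of all regions and 15.6% of the BCAS-only regions of the genome), TCF letters in 2 (2.6%, against 3.1%) and NKX2 letters in 1 (1.3%, against 3.0%). These are counts of letters, not of bound sites.

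The deposited lists held 119660 to 160848 peaks per BCAS library and 107482 to 145102 per sham library, with a total length of 48.9 to 66.3 Mb per BCAS and 44.5 to 60.8 Mb per sham library. Read counts are not part of the lists, and the depth at a given peak is therefore unknown. Markers of cortical neurons were open in all libraries, with a summed scaled covered length over the excitatory list of 34.9 to 36.8 kb in BCAS and 34.4 to 38.8 kb in sham libraries, although Sst, which marks one class of inhibitory neurons, had no peak in any library. Markers of microglia differed between the groups. Of 20 microglial loci tested, 6 were called higher and 0 lower, against 3.15% and 0.376% of all genes tested. Their median log2 fold change was 0.43, and their summed scaled length was 34.9 to 39.3 kb in BCAS and 25.8 to 33.8 kb in sham libraries. The loci of endothelial and mural cells had a summed scaled length of 22.9 to 24.9 kb in BCAS and 18.5 to 21.7 kb in sham libraries, with 0 of 12 called. Libraries fell into a higher and a lower class of read GC content in the study's quality table: BCAS 1 and sham 1, 2 and 3 were in the higher class, and BCAS 2, 3 and 4 and sham 4 in the lower, so a comparison within a class rests on a single library of one group. The part of these differences in the results at the lineage loci was not tested, other than by the fits and within-class values given beside them.

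All 10 loci carried peaks in every library. Together they held 68, 51, 59 and 48 peaks in BCAS 1 to 4 and 37, 43, 51 and 51 peaks in sham 1 to 4. Per 10000 peaks of a library these were 4.23, 3.99, 4.78 and 4.01 in BCAS, against 3.45, 3.24, 3.52 and 4.54 in sham libraries. Sham 4 lay within the BCAS range on this measure, and the other sham libraries lay below every BCAS library.

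Of the 78 regions, 37 had a peak in more BCAS than sham libraries (47.4%, against 30.4% of all regions), 10 in more sham than BCAS libraries (12.8%, against 23.2%), and 31 in the same number of both. The 37 were made up of 15 of the 26 regions at Tcf7l2 and 6 of 8 each at Nkx2-2 and Pdgfra. Bcas1 had 4 of 12, Enpp6 3 of 10, Sox10 2 of 5 and Olig2 1 of 4. Olig1 had 0 of 1, and Nkx6-2 and Gpr17 had 0 of 2 each. A peak in every library was found in 28 regions (35.9%, against 36.2% of all regions). A BCAS-only region, with a peak in all BCAS and no sham libraries, was found once, at Tcf7l2, against 1.62% of all regions, and 0 were sham-only, against 0.0945%. Regions with at least 3 more BCAS than sham libraries numbered 4, at Tcf7l2 (2), Nkx2-2 and Bcas1, against 4.52% of all regions, and 1 region, at Enpp6, had at least 3 more sham libraries, against 1.18%. A peak in a single library made up 17 regions (21.8%, against 18.2% of all regions), 14 of them from a BCAS library (82.4%, against 56.7% of such regions over the genome), and all 14 came from BCAS 1 (6) and BCAS 3 (8). Most regions lay in introns (52), with 10 in the flank before the gene, 9 in the flank after it, 4 in coding exons and 3 in untranslated exons.

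The length covered by peaks in each locus was scaled to the library's total covered length, increased by 200 bp and compared on the log2 scale with limma over 17012 genes, with Benjamini-Hochberg adjustment over all of them. Fold changes on this scale understate the change at loci with little covered length. The p-values set the difference between the groups against the spread within a group, which limma moderates over all genes tested. With 1 library per mouse, that spread holds differences between mice and between libraries alike. Of the 10 loci, 1 was called higher in BCAS (Tcf7l2), against 3.15% of all genes tested, and 0 were called lower, against 0.376%. The groups did not overlap at 1 of 10 loci, against 8.51% of all genes. The median log2 fold change was 0.09 over the 10 loci and 0.00 over all genes. Relative to the length of the locus and before scaling, peaks covered on average 2.16% (Enpp6) to 10.2% (Nkx2-2) in BCAS and 2.23% (Pdgfra) to 10.6% (Olig1) in sham libraries. Unless stated otherwise, lengths given below for a whole locus are scaled and those for a single region are not. Differences in bp between group means are scaled.

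**Figure D1:**
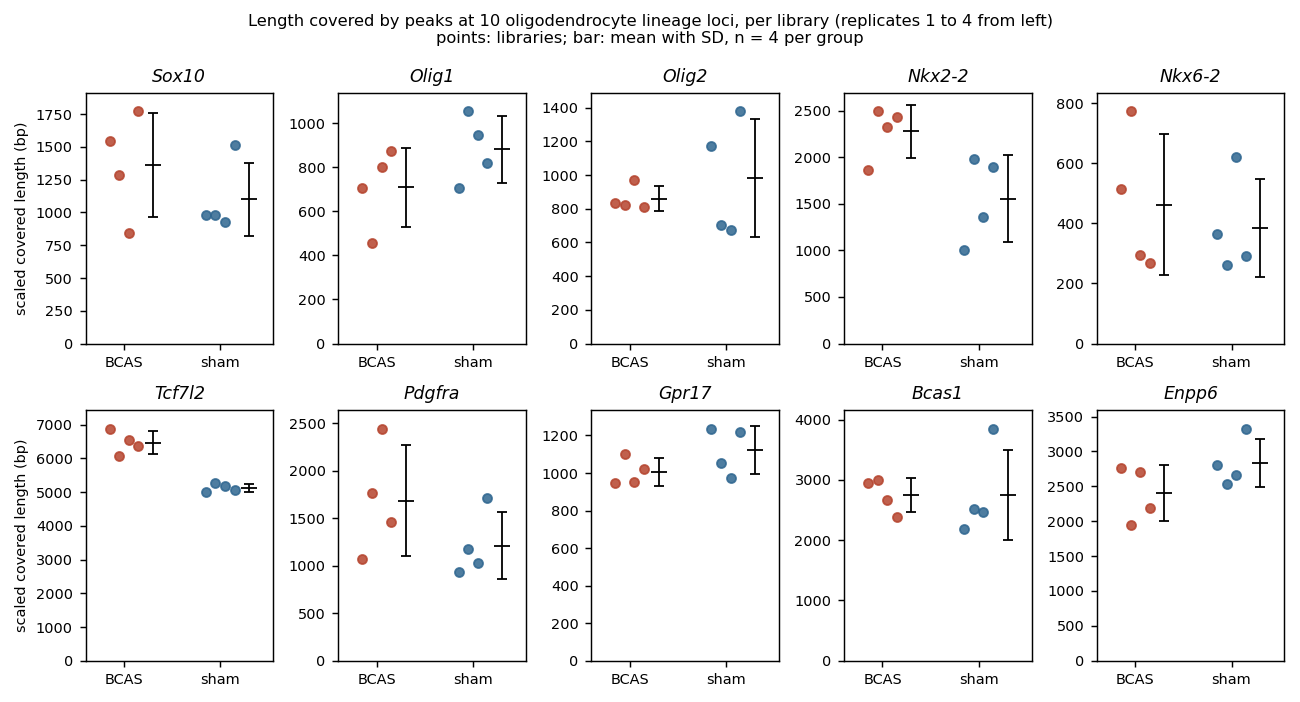
Length of each locus covered by peaks (vertical axis, bp scaled to the library's total) in the 4 BCAS (red) and the 4 sham libraries (blue), with points for libraries in replicate order and a bar for the mean with SD. The groups are apart only at Tcf7l2, where BCAS libraries lie between 6061 and 6888 bp and sham libraries between 4999 and 5280 bp.

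Tcf7l2, which encodes a transcription factor of the Wnt pathway that is switched on as precursors differentiate and is also used by other cells of the brain, such as endothelial cells and thalamic neurons, is the longest of the loci (chr19:55741820-55933654, plus strand, with 9 annotated transcript starts). Its scaled covered length was 6888, 6061, 6553 and 6382 bp in BCAS 1 to 4, against 4999, 5280, 5178 and 5060 bp in sham 1 to 4. Every BCAS library lay above every sham library. The means were 6471 ± 345 bp in BCAS and 5129 ± 125 bp in sham mice (SD, n = 4 each), a 1.25-fold difference (95% interval 1.11 to 1.41), and the log2 fold change was 0.32 (SE 0.08, limma adjusted p = 0.0334). Within the higher GC class the log2 difference was 0.41, and within the lower class 0.31. The call was close to the threshold: each of the 8 fits without a library gave 0.29 to 0.35 with adjusted p of 0.0511 to 0.0903, and with the GC class as a covariate the value was 0.36 with adjusted p = 0.0596. With only peaks of −log10 q of at least 5, the value was 0.20 with adjusted p = 0.441.

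The Tcf7l2 locus held 23, 18, 19 and 16 peaks in BCAS libraries, against 12, 13, 16 and 12 in sham libraries, so BCAS 4 and sham 3 had the same number. They fell into 26 regions, 9 of them with a peak in every library, 15 with a peak in more BCAS libraries and 1 in more sham libraries. The largest difference of a single region was at the BCAS-only one (chr19:55865956-55866531), in an intron 29411 bp before an internal transcript start. Its peaks covered 475, 576, 435 and 461 bp in BCAS 1 to 4, and no sham library had a peak there. After scaling, this is 479 bp of the 1342 bp by which the group means differed. It was BCAS-only also without any single library, but not among peaks of −log10 q of at least 5.

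A further intronic region (chr19:55827839-55828204), 67450 bp before an internal start, had peaks of 308, 227, 354 and 206 bp in BCAS libraries and 1 peak of 294 bp in sham 3, and added 203 bp to the difference. The region 32154 bp after the nearest start was called in all libraries and covered 842, 632, 506 and 663 bp in BCAS, against 413, 407, 401 and 342 bp in sham. The extra length in BCAS was largely a separate peak in BCAS 2, 3 and 4, at 33097 to 33306, 33083 to 33313 and 33089 to 33326 bp from the gene start. The BCAS 1 peak, at 32455 to 33297 bp, spanned this stretch, and no sham peak reached it. Only the BCAS 1 peak joined the stretch to the shared region, so it was not counted as BCAS-only. The scaled length of the joined region did not overlap between the groups and added 231 bp. The 8 regions with a peak in a single library were all from BCAS 1 or BCAS 3. On the sham side, the region 14812 bp before an internal start covered 200 and 202 bp in BCAS 1 and 3, against 200, 554 and 470 bp in sham 1, 2 and 3, a scaled difference of −202 bp. The region 61340 bp before an internal start was called in all libraries and was shorter in every BCAS library than in any sham library. It covered 286, 291, 291 and 218 bp in BCAS, against 351, 391, 355 and 383 bp in sham. Its scaled difference was −123 bp, without overlap between the groups. The groups overlapped at the first start of the gene, where the region at −167 bp covered 745, 525, 644 and 649 bp in BCAS, against 637, 645, 564 and 606 bp in sham libraries.

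**Figure D2:**
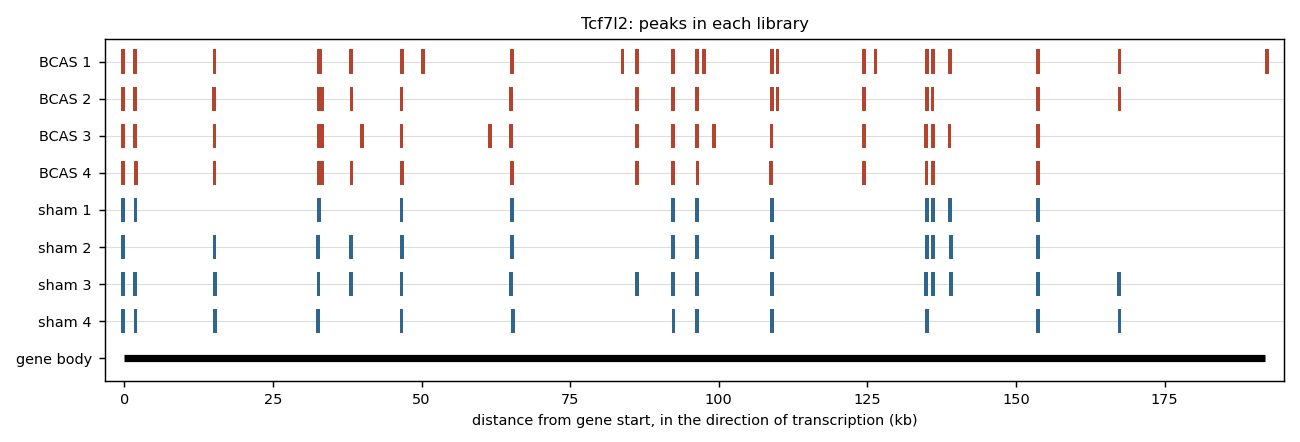
Peaks of each library at Tcf7l2 along the gene (horizontal axis, kb from the gene start; BCAS red, above sham, blue; short peaks are drawn at a minimum width so that they can be seen). The 9 regions with a peak in all 8 libraries line up as full columns, and BCAS 1 to 4 had 23, 18, 19 and 16 peaks against 12, 13, 16 and 12 in sham 1 to 4.

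Nkx2-2 encodes a homeodomain factor that takes part in the timing of oligodendrocyte differentiation (chr2:147177546-147194243, minus strand). Its scaled covered length was 1862, 2492, 2320 and 2430 bp in BCAS 1 to 4, against 999, 1978, 1354 and 1893 bp in sham 1 to 4. BCAS 1 was lower than sham 2 and sham 4, so the groups overlapped, while the other 3 BCAS libraries were above every sham library. The means were 2276 ± 285 bp in BCAS and 1556 ± 463 bp in sham mice (SD, n = 4 each), and the log2 fold change of 0.53 (SE 0.17, 95% interval 0.18 to 0.88) did not pass with limma (adjusted p = 0.0961). The log2 difference was 0.37 within the higher and 0.32 within the lower GC class. The 8 fits without a library gave 0.36 (without sham 1, adjusted p = 0.243) to 0.65, and 2 of them passed, without sham 2 (0.65, adjusted p = 0.0477) and without sham 4 (0.63, adjusted p = 0.0436). With the GC class as a covariate the value was 0.35 (adjusted p = 0.413), and in promoter windows alone it was 1.22 (adjusted p = 0.0607).

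The 8 regions of Nkx2-2 included 6 with a peak in more BCAS libraries, 1 with more sham libraries and 1 shared by all. The shared one, in an intron 5282 bp after the nearest start, covered 592, 636, 545 and 544 bp in BCAS, against 495, 649, 545 and 617 bp in sham libraries. A region in a coding exon 272 bp after the nearest start (chr2:147185713-147186027) covered 215, 271 and 251 bp in BCAS 1, 3 and 4, and no other library had a peak there. A region 1800 bp before another start covered 391, 342, 387 and 328 bp in BCAS, against 397 and 225 bp in sham 2 and 3, and lies also over the non-coding genes Nkx2-2os and 6430503K07Rik. The region 7139 bp after the nearest start was called in BCAS 2 and 3 only, and the one at 7774 bp in BCAS 3 only.

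Pdgfra encodes the receptor by which precursors respond to platelet-derived growth factor and is the usual marker of these cells, although fibroblasts of vessels and meninges also express it (chr5:75152292-75198215, plus strand). Its scaled covered length was 1072, 1766, 2444 and 1462 bp in BCAS 1 to 4, against 935, 1175, 1026 and 1714 bp in sham 1 to 4. Both groups spread widely and overlapped, with sham 4 above BCAS 1 and BCAS 4. The log2 fold change was 0.40 (SE 0.20, limma adjusted p = 0.364), but it was only 0.04 within the higher and 0.10 within the lower GC class. Of its 8 regions, 6 had a peak in more BCAS libraries and 0 in more sham libraries. The 2 shared regions lay 458 and 7626 bp after internal starts. The first covered 347, 490, 310 and 470 bp in BCAS, against 297, 319, 342 and 485 bp in sham libraries, which overlap. No region was found at the first annotated start of the gene. The regions called in BCAS libraries alone were 5, of which the intronic one at 29136 bp came from BCAS 2 and 3, the one in an untranslated exon at 41371 bp from BCAS 1 and 4, and the other 3 from BCAS 3.

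**Figure D3:**
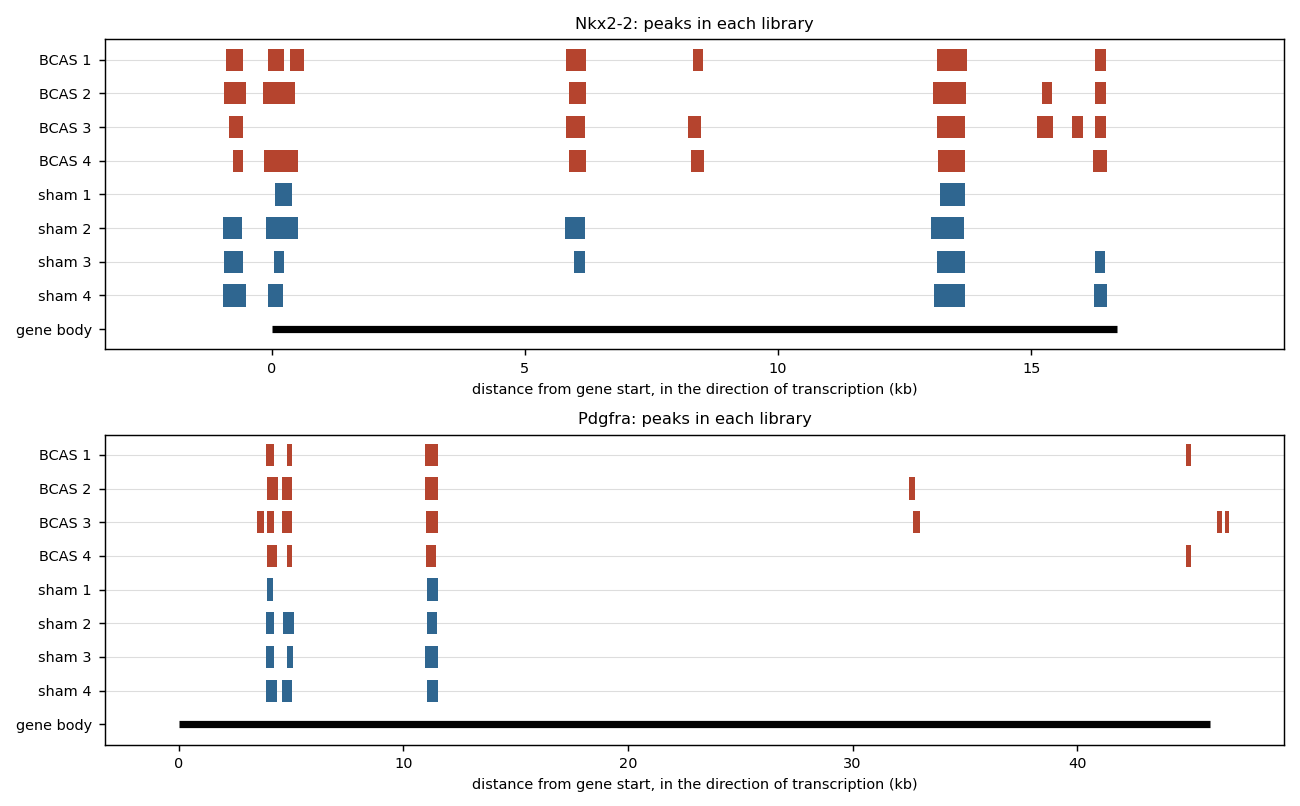
Peaks of each library at Nkx2-2 (top) and Pdgfra (bottom), along the gene in kb from the gene start (BCAS red, above sham, blue; short peaks are drawn at a minimum width). Of 8 regions each, 6 have a peak in more BCAS than sham libraries at both loci.

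Sox10, Olig1, Olig2 and Nkx6-2, which specify and maintain the lineage, had no call. Sox10 (chr15:79154908-79165240, minus strand), which keeps the oligodendrocyte programme and drives myelin genes, had a scaled covered length of 1548, 1284, 847 and 1772 bp in BCAS 1 to 4, against 982, 979, 928 and 1516 bp in sham 1 to 4. The ranges overlapped, as BCAS 3 was below all sham libraries. The log2 fold change was 0.25 (SE 0.18, adjusted p = 0.617), and it was 0.59 within the higher and −0.24 within the lower GC class. Both regions present in every library lay outside the gene body, one 1693 bp before the gene start and one in the flank after the gene, 11554 bp from the internal start that is nearest to it, a flank that also belongs to the locus of Polr2f. A region 66 bp before an internal start was called in BCAS 1, 2 and 4 (285, 200 and 254 bp) and in sham 4 (210 bp). A further region in the flank after the gene, 12443 bp from the same internal start, covered 356 and 282 bp in BCAS 1 and 2 and was called in no sham library.

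Olig1 (chr16:91269772-91271933, plus strand), a bHLH factor that works in differentiation and remyelination, held 1 merged region, over its start. Every library but BCAS 2 had 2 peaks in it, and BCAS 2 had only the peak over the start, at −293 to 156 bp. The peaks were joined because a sham 2 peak, at −292 to 489 bp from the gene start, overlapped a sham 3 peak at 432 to 1069 bp. The region covered 704, 458, 799 and 872 bp after scaling in BCAS 1 to 4, against 705, 1053, 947 and 818 bp in sham 1 to 4, with overlap (log2 fold change −0.26, SE 0.17, limma adjusted p = 0.543). Olig2 (chr16:91225457-91228677, plus strand), a bHLH factor needed to specify oligodendrocyte precursors, had a scaled covered length of 835, 824, 968 and 812 bp in BCAS, against 1175, 705, 671 and 1378 bp in sham libraries. The sham values lie on both sides of the BCAS values (log2 fold change −0.11, SE 0.18, adjusted p = 0.882). Its 2 shared regions lay 97 and 2754 bp before the start, and the nearer covered 398, 331, 325 and 373 bp in BCAS, against 334, 355, 346 and 347 bp in sham libraries. Nkx6-2 (chr7:139579376-139582797, minus strand), a homeodomain factor of myelinating cells, had a scaled covered length of 514, 773, 295 and 269 bp in BCAS, against 363, 260, 622 and 292 bp in sham libraries, with overlap (log2 fold change 0.16, SE 0.26, limma adjusted p = 0.889). Its region over the start lies also in the locus of Inpp5a, as does a region past the end of the gene that was called in sham 3 alone, and the position of a peak does not say to which gene it belongs.

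Gpr17, Bcas1 and Enpp6 had no call either. Gpr17 encodes a receptor of committed precursors that is shut off before maturation, and lies at chr18:31942997-31949636 (minus strand) inside the locus of Lims2. Its scaled covered length was 948, 1102, 952 and 1021 bp in BCAS, against 1237, 1051, 975 and 1218 bp in sham libraries, with overlap (log2 fold change −0.13, SE 0.13, limma adjusted p = 0.755). Both of its regions were called in every library, one 557 bp before the start and one 2945 bp after it.

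Bcas1 (chr2:170346991-170427845, minus strand), expressed in newly forming oligodendrocytes, had a scaled covered length of 2947, 2995, 2669 and 2381 bp in BCAS, against 2181, 2512, 2462 and 3854 bp in sham libraries. After scaling, sham 4 was the highest of all and the other sham libraries were in the lower part of the range. Before scaling, BCAS 1 was the highest, with 3694 bp against 3247 bp in sham 4. The log2 fold change was 0.02 (SE 0.14, limma adjusted p = 0.973). Within the higher GC class the log2 difference was 0.29 and within the lower −0.50. No region lay at its annotated starts. Differences between regions ran both ways, with summed scaled differences of 615 bp where the BCAS mean was higher and −620 bp where the sham mean was higher. The region past the end of the gene (chr2:170345490-170345855) covered 344, 328, 325 and 278 bp in BCAS libraries and 316 bp in sham 4, and was absent from the lists of sham 1 to 3. Among peaks of −log10 q of at least 5, and among lists cut to equal length, it was called in all BCAS libraries and no sham library. The intronic region 76157 bp after the nearest start covered 485 and 246 bp in BCAS 1 and 2, against 314, 752, 619 and 244 bp in sham libraries, and the one at 64035 bp covered 297 bp in BCAS 1, against 243, 251 and 214 bp in sham 2, 3 and 4.

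Enpp6 (chr8:46986887-47096762, plus strand) encodes a choline-specific phosphodiesterase of newly formed oligodendrocytes. Its scaled covered length was 2762, 1951, 2707 and 2184 bp in BCAS, against 2806, 2531, 2668 and 3328 bp in sham libraries, with overlap (log2 fold change −0.23, SE 0.13, limma adjusted p = 0.436). Within the higher GC class the log2 difference was 0.05, and within the lower −0.52. The coding exon region (chr8:47082280-47082774) had a peak of 205 bp in BCAS 1 and none in BCAS 2 to 4, against 481, 430, 247 and 399 bp in sham 1 to 4. An intronic region 40265 bp after the nearest start covered 271 bp in BCAS 1, against 289, 302 and 392 bp in sham 2, 3 and 4. The region with the strongest peaks, 45339 bp after the nearest start, covered 571, 491, 496 and 603 bp in BCAS, against 556, 462, 606 and 567 bp in sham libraries. The ranges overlap.

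**Figure D4:**
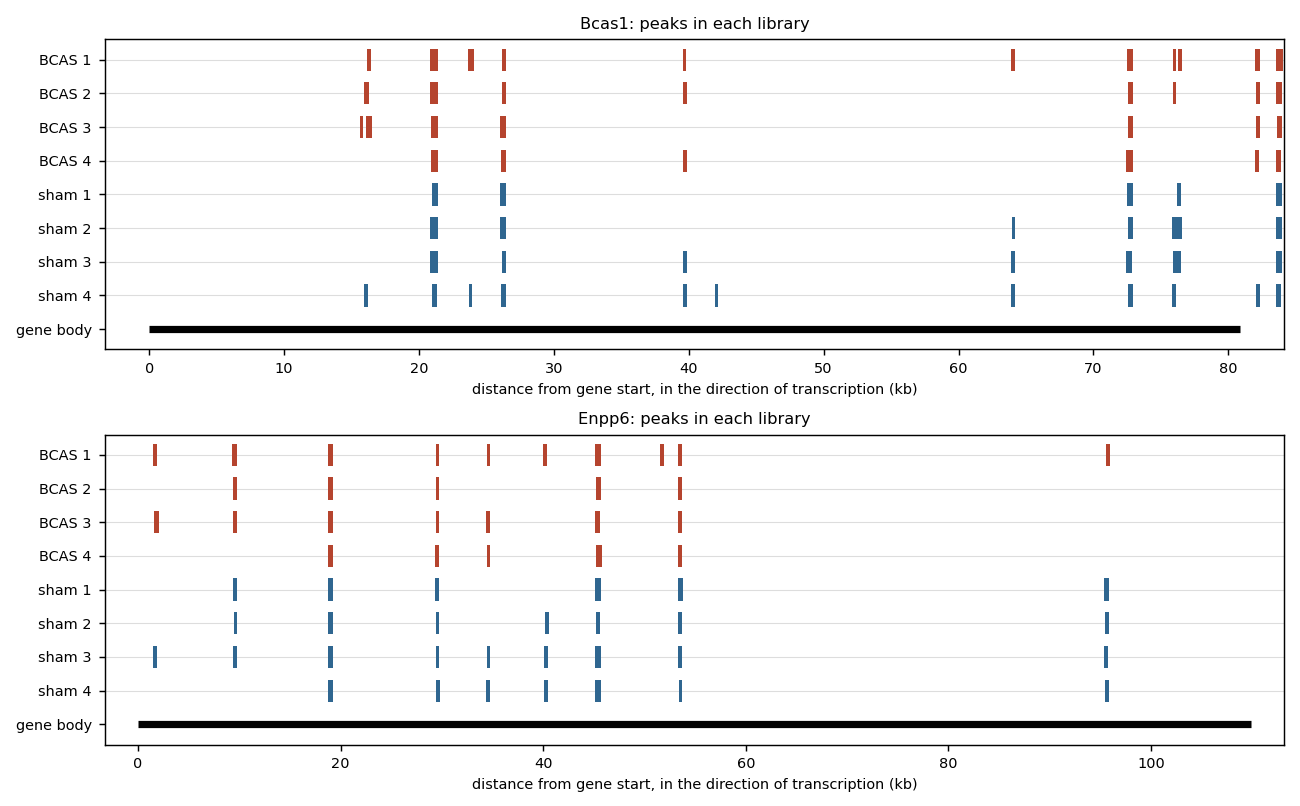
Peaks of each library at Bcas1 (top) and Enpp6 (bottom), along the gene in kb from the gene start (BCAS red, above sham, blue; short peaks are drawn at a minimum width). At Bcas1 the first of the 2 columns after the end of the gene body has all 4 BCAS libraries and sham 4 while the second has all libraries, and at Enpp6 the column nearest to the gene end has BCAS 1 and all 4 sham libraries.

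At the 28 regions with a peak in every library the strength of the peak was compared by its rank within the library among the 71712 such regions. The rank is given as a percentile in which 100 is the strongest of these regions, and was tested as a normal score with limma over all of them. None of the 28 regions was called (smallest adjusted p = 0.199), against 2.93% called stronger and 0.987% called weaker of all shared regions. At an unadjusted p under 0.05 there were 0 stronger and 2 weaker, both at Tcf7l2. The estimate was above 0 in 20 regions and below 0 in 8, and the median was 0.13, against −0.02 over all shared regions. The groups did not overlap in 2 of 28 regions, against 11.0% of all shared regions. These were the region at the Nkx6-2 start, with percentiles of 23.6, 23.8, 42.4 and 22.2 in BCAS and 10.5, 21.3, 18.8 and 14.4 in sham libraries, and a Tcf7l2 region.

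At Tcf7l2 the ranks of shared regions did not follow the longer coverage. Of 9 shared regions the estimate was above 0 in 4 and below 0 in 5. The intronic region 46120 bp after the nearest start had percentiles of 50.6, 36.3, 41.6 and 47.3 in BCAS, against 79.3, 56.9, 61.0 and 51.5 in sham libraries, and was lower in every BCAS library. The normal score differed by −0.48 (SE 0.20, adjusted p = 0.199 with limma). The region 32154 bp after the nearest start, where BCAS peaks covered a further stretch, was ranked by its strongest peak. Its percentiles were 7.0, 49.9, 12.4 and 25.9 in BCAS, against 67.2, 31.1, 35.6 and 45.6 in sham libraries (difference −0.69, SE 0.32, limma adjusted p = 0.243). The start region at −167 bp had 76.0, 83.7, 67.6 and 80.6 in BCAS, against 70.6, 71.6, 77.2 and 75.7 in sham libraries, with overlap. Rank and coverage differed in sign at other loci too. At Enpp6 the rank estimate was above 0 in all 4 shared regions, beside a log2 fold change of −0.23 in covered length. The signs also differed at Gpr17, Olig2 and Nkx2-2, and they matched at Sox10, Olig1, Nkx6-2 and Pdgfra.

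Among the other shared regions the strongest were at Enpp6, Olig1, Nkx2-2 and the Tcf7l2 start. The Enpp6 region at 45339 bp had percentiles of 91.4, 91.3, 85.1 and 90.1 in BCAS, against 85.7, 89.3, 91.7 and 86.9 in sham libraries. The Olig1 start had 86.7, 85.5, 85.4 and 86.6 in BCAS, against 84.7, 89.4, 86.8 and 90.2 in sham libraries. Both lay in the upper part of the shared regions in every mouse. At the Sox10 region in the flank after the gene, 11554 bp from the nearest start, percentiles were 63.4, 40.4, 62.2 and 66.7 in BCAS, against 34.2, 57.5, 31.1 and 58.3 in sham libraries. These overlap (difference 0.34, SE 0.22, adjusted p = 0.439).

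**Figure D5:**
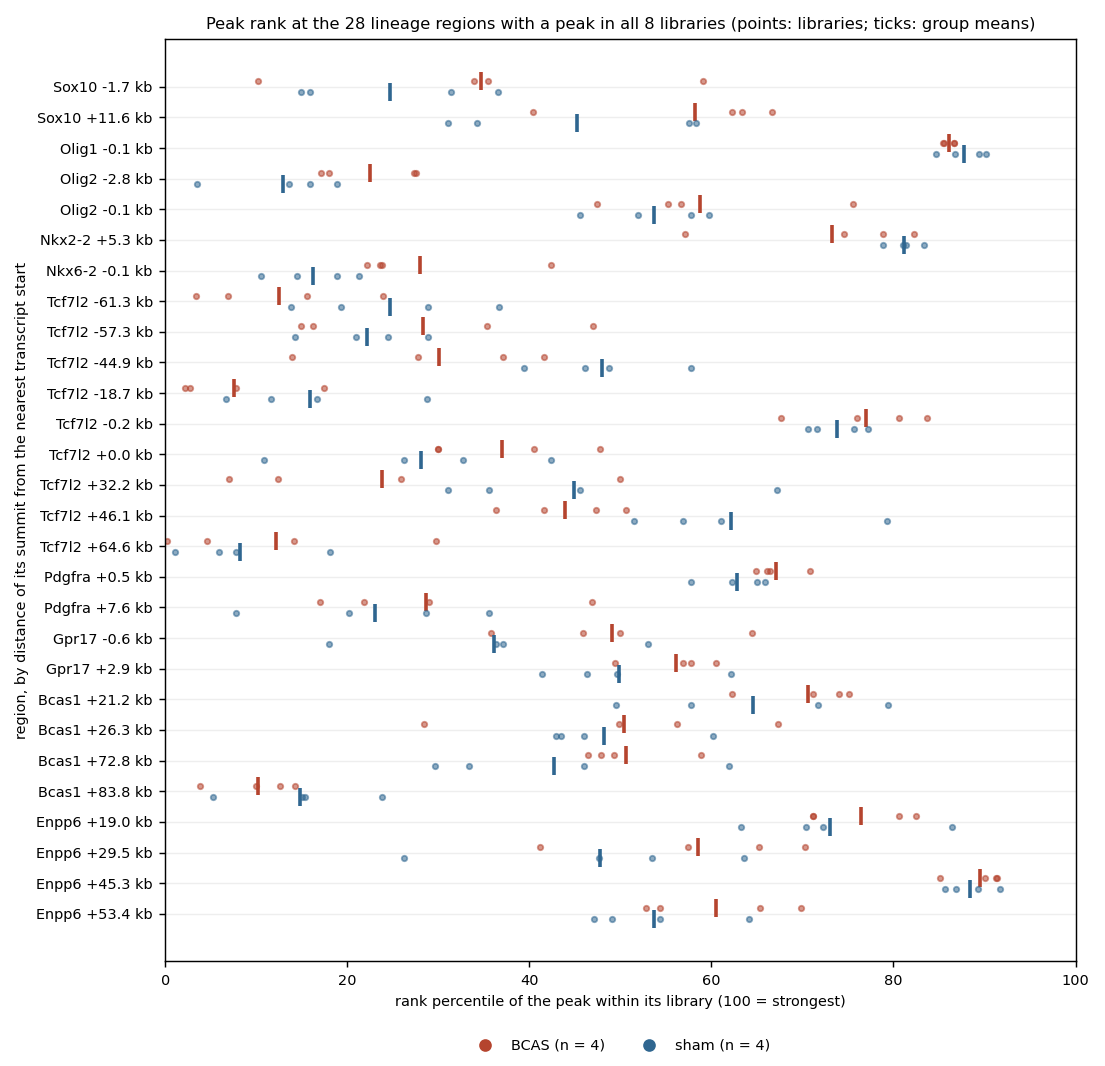
Rank percentile of the peak in the 28 regions with a peak in every library. On the horizontal axis, 100 is the strongest of the 71712 such regions in a library. Regions are named by the gene and by how far the summit lies from the nearest transcript start in kb. BCAS (red) is above sham (blue), with points for libraries and a tick for the group mean. Groups overlap in 26 of 28 regions.

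Calls in the other lists of lineage genes are to be read beside the shares over all genes tested. Of all genes, 3.15% were called higher and 0.376% lower, and the groups did not overlap at 8.51%. Of 33 other transcription and chromatin regulators of the lineage tested, 0 were called higher and 0 lower (median log2 fold change 0.02), and of 19 other precursor markers likewise 0 and 0 (median −0.03). At an unadjusted p under 0.05 with limma there were 1 higher and 2 lower among the regulators, and 2 and 2 among the precursor markers. There were 4 and 2 among the 18 other markers of committed precursors and newly formed cells, and 2 and 0 among the 23 myelin and mature cell genes. Of all 17012 genes, 1803 were higher and 748 lower at this level. The groups did not overlap at 0 of 33, 3 of 19, 3 of 18 and 0 of 23 loci of these lists in the same order. Of 18 other markers of committed precursors and newly formed cells, 2 were called higher, Tns3 and Itpr2, and the median was 0.01. Tns3, a focal adhesion protein used as a marker of immature oligodendrocytes, had a scaled covered length of 14225, 13333, 15389 and 15272 bp in BCAS, against 10872, 11421, 9841 and 13104 bp in sham libraries, without overlap (log2 fold change 0.36, SE 0.08, limma adjusted p = 0.0197). Itpr2, a calcium release channel, had a scaled covered length of 17289, 15947, 19284 and 17822 bp in BCAS, against 13479, 14286, 13814 and 16296 bp in sham libraries, with sham 4 above BCAS 2 (log2 fold change 0.28, SE 0.07, limma adjusted p = 0.043). Both genes are also expressed in other cell types. Of 23 myelin and mature cell genes, 1 was called higher, Mal, and the median was −0.04. Mal, a membrane protein of compact myelin, had a scaled covered length of 1364, 1144, 894 and 712 bp in BCAS, against 344, 407, 802 and 485 bp in sham libraries, with sham 3 above BCAS 4 (log2 fold change 0.80, SE 0.20, limma adjusted p = 0.0371).

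The lists of astrocytes, excitatory neurons and inhibitory neurons had 0 of 12, 0 of 11 and 0 of 9 loci called, with medians of 0.05, −0.08 and 0.04. The microglial genes with the smallest adjusted p were Itgam, which encodes an integrin of myeloid cells, Tyrobp and Gpr34. Itgam had a scaled covered length of 1387, 1342, 1109 and 529 bp in BCAS, against 0, 0, 219 and 0 bp in sham libraries. Summed over the 10 lineage loci, the scaled covered length was 20078, 19704, 20555 and 19585 bp in BCAS, against 16382, 17525, 16832 and 21070 bp in sham libraries. On this scaled measure sham 4 was above every BCAS library. Its total covered length was the smallest of all libraries (44.5 Mb), so scaling raised its values the most.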

How the data were processed

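ATAC-seq was performed on cortex from 4 BCAS and 4 sham mice, 1 library per mouse. Per the labels and the methods of the study, the authors used FastQC for quality control, Trim Galore for trimming, Bowtie2 2.3.4.3 for alignment to mm10 (GRCm38) and SAMtools 1.9 on the alignments, discarded duplicates, and ran MACS2 on each library. Which MACS2 options were set, and whether reads were shifted for Tn5, is not given in the sources used here. Each deposited list gives the start, end and summit of a peak, the score, a whole number set by the authors' peak caller, its fold enrichment as a ratio over the local background, and its −log10 p and −log10 q. These values were made within a library, so they were used only to rank its peaks or to set a threshold. The lists held 1028949 peaks on 21 chromosomes.

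Genes came from GENCODE M21 and sequence from GRCm38. Peaks that overlapped by 1 bp or more were merged into regions. Covered length per locus was tested as log2(scaled bp + 200 bp) in genes whose mean reached 200 bp, and peak rank as the normal score of the −log10 p rank in regions called in every library, both with limma 3.58.1 in R 4.3.3 (trend of the variance, Benjamini-Hochberg adjustment, threshold 0.05). Tables and plots were made with Python 3.11.15, numpy 2.4.6, pandas 2.3.3, scipy 1.17.1 and matplotlib 3.10.9. Motifs were searched within 100 bp of the median summit. The read GC class came from the quality table of the study. The members and gene lists were chosen with earlier results of these data known. Named genes were the 10 members, up to 3 called genes of each other list with the smallest adjusted p, the 5 genes most like the members over the libraries, and genes that share a region with a member. Alternatives were other scalings, pseudocounts (50 and 1000 bp), minimum, peak threshold, list length, flanks (10 kb), promoter windows, rank by fold, merging across 200 bp, the GC class as a covariate, a block for replicate number and leaving out each library.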

Additional observations from a re-analysis of the deposited data

Results flagged for a closer look

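Among 76 groups of 4 libraries looked at (20 groups of scaled covered length at the 10 loci and 56 groups of rank percentile at the 28 shared regions), 3 held a library far from the others by Dixon's criterion, where chance flags about 5% of groups. At Sox10, the scaled covered length of sham 4 was 1516 bp, with the other sham libraries between 928 and 982 bp. Before scaling, sham 4 covered 1277 bp, with the other sham libraries between 833 and 1068 bp, so the gap was smaller. At Olig2, the scaled covered length of BCAS 3 was 968 bp, with the other BCAS libraries between 812 and 835 bp. Before scaling, BCAS 3 (930 bp) was not the highest, as BCAS 1 covered 1047 bp. At the Nkx6-2 start, the peak of BCAS 3 had a rank percentile of 42.4, with the other BCAS libraries between 22.2 and 23.8.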

How the results depend on the processing

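The number of the 10 loci called higher in BCAS was 1 as reported and 0 without scaling, with peaks of −log10 q of at least 5, with lists of equal length, with 10 kb flanks, in promoter windows only (8 loci tested) and with read GC class added as a covariate. It was 0 to 1 without a library, and the 1 call of those fits was Nkx2-2. For Tcf7l2 the log2 fold change was 0.41 (adjusted p = 0.35), 0.20 (0.441), 0.33 (0.0587), 0.27 (0.0537), 0.12 (0.999) and 0.36 (0.0596) under these settings in the same order, and it stayed called with pseudocounts of 50 and 1000 bp and with no minimum. With the replicate block, 2 loci were called, Tcf7l2 (adjusted p = 0.044) and Nkx2-2 (0.53, adjusted p = 0.0153), and 778 genes were called higher and 160 lower. The numbers name mice and pair none: deviations of same-numbered libraries correlated at −0.159, −0.011, −0.097 and 0.138.

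The sign turned for Sox10 with lists of equal length (−0.09), for Bcas1 with peaks of −log10 q of at least 5 (−0.02) and with the GC class (−0.11), for Olig2 without sham 4 (0.04), for Nkx6-2 without BCAS 2 (−0.05) and for Bcas1 without BCAS 1 (−0.01), BCAS 2 (−0.02), sham 1 (−0.07), sham 2 (−0.01) or sham 3 (−0.02). Over all fits without a library, the values ran from −0.24 to 0.04 for Olig2, −0.05 to 0.33 for Nkx6-2 and −0.07 to 0.19 for Bcas1. The causes were not tested. Over all genes, 536 were called higher and 64 lower as reported, 222 and 1 without scaling, 214 and 6 in promoter windows and 245 and 8 with the GC class. Without a library these counts were 298 (without BCAS 3) to 662 (without sham 4) and 25 (without sham 2) to 91 (without sham 4), and 333 were called higher without BCAS 1. By peak rank, 2101 shared regions were called stronger and 708 weaker, 948 and 340 when ranked by fold enrichment, 1197 and 163 with the GC class, and 1486 to 2342 and 205 (without sham 3) to 809 without a library. The 10 loci held 1 BCAS-only region, 2 with lists of equal length and 1 to 2 without a library, and 0 sham-only regions, 0 to 1 without a library. Over all regions, sham-only ones numbered 187, 642 with lists of equal length, and 223 to 1132 (without BCAS 1) without a library. Peaks hold no read counts, so a region with no peak may be open below the threshold of its list.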

Other observations

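The genes whose log2 covered length over the 8 libraries was most like the mean of the 10 lineage loci were Tmem65, Nol4l, Pcnx2, Boll and Tg. Their libraries share the same scaling and depth, and the likeness is given as a description with no test.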
